A study of Homo sapiens with 6 samples.

Results

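VSIR and 9 further genes for ligands of immune checkpoints were followed in PANC-1 cells with and without an enhancer of DKK1, 10 of the 62703 genes in the deposited table. The other 9 were CD274, PDCD1LG2, CD276, VTCN1, NECTIN2, PVR, CD47, LGALS9 and CD70. The group was put together with the results of the comparison already known, so its members were selected on the same expression values that are given here, and their differences are a description with no test. PANC-1 is an established human line from a pancreatic ductal carcinoma. RNA was sequenced from 3 biological replicates of DKK1-SE-/- cells and 3 of DKK1-SE+/+ cells. DKK1-SE-/- cells carry a homozygous deletion, made with CRISPR/Cas9, of e1, a component enhancer of the DKK1 super-enhancer, and they descend from 1 clone. DKK1-SE+/+ cells are labelled as wild type, and the sources do not say whether they are the parental line or an unedited clone. The comparison of the genotypes asks which transcripts differ when the enhancer is gone.

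Checkpoint ligands are surface or secreted proteins that act on receptors of T cells, natural killer cells and phagocytes. CD274 (PD-L1) and PDCD1LG2 (PD-L2) bind the receptor PD-1 on T cells, VSIR (VISTA) restrains T cells as both ligand and receptor, PVR and NECTIN2 are bound by TIGIT and by the activating receptor CD226, and CD47 signals to phagocytes through SIRPA. Tumour cells can carry such ligands themselves, and in pancreatic carcinoma they are studied because T cells are often few or inactive in these tumours.

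The libraries held 21822314, 16475810 and 18803154 expected counts in the wild-type replicates and 17359835, 20098086 and 17804764 in the DKK1-SE-/- replicates. A count of 0 in a library is compatible with up to 3 counts, which is 0.137 to 0.182 CPM when counts are scaled by the library total alone, and this limit covers counting error only. DKK1, a secreted inhibitor of Wnt signalling, was used as a check of the labels because e1 lies outside its transcript. DKK1 stood at 229, 246 and 199 TPM (a level per transcript length, scaled within each library) in the wild-type replicates and at 66.8, 79.8 and 82.7 TPM in the DKK1-SE-/- replicates. All 3 edited samples were below all 3 wild-type samples, with a log2 fold change of -1.45 (SE 0.11).

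Markers of cell type were read before the members, because several members are also made by blood cells. The 10 epithelial markers summed to 2049, 2106 and 2157 TPM in the wild type and to 3308, 3251 and 2809 TPM in DKK1-SE-/- cells, with the keratin KRT8 as the most abundant, and 4 of the 10 rose and 4 fell. Here and below, a gene is said to rise or fall in DKK1-SE-/- cells when its adjusted p was under 0.05 in edgeR's test across all genes with enough counts. By this limit 39.3% of all tested genes were called. Of these markers, KRT19 rose from 53.9 ± 5.79 to 172 ± 25.9 TPM (SD, n = 3), MUC1 from 9.40 ± 2.15 to 24.0 ± 6.04 TPM and KRT8 from 957 ± 27.2 to 1560 ± 171 TPM. EPCAM fell from 4.17 ± 0.55 to 2.58 ± 0.80 TPM, a call kept in 5 of 15 alternatives, and CDH1, which did not pass the test, lay between 0.42 and 2.67 TPM. The 24 markers of blood and immune cells summed to 47.3, 46.1 and 49.6 TPM in the wild type and 71.5, 68.8 and 70.4 TPM in DKK1-SE-/- cells. Nearly all of that was CD68, a lysosomal protein that many cell types make, which stood at 43.5 TPM in the wild type and 66.6 TPM after the deletion. Without CD68 the other markers summed to 4.13, 5.24 and 3.11 TPM and to 3.68, 4.01 and 3.29 TPM. PTPRC, the common marker of white blood cells, reached at most 0.04 TPM in a sample, MS4A1, CD2, CD3G and CD3D were at 0 in all 6 samples, and 19 of the 24 never reached 0.5 TPM. CD14, a coreceptor for lipopolysaccharide on monocytes, was higher in each edited sample than in every wild-type sample, at 0.62, 0.28 and 0.51 against 1.07, 1.54 and 1.46 TPM. CD14 had enough counts for the test only through its DKK1-SE-/- samples, which favoured a rise. Of the 4 blood markers with enough counts for the test, 2 rose (CD14 and CD68). NCAM1 (log2 fold change -0.59) and ITGAM (-0.52) did not pass it. The 11 markers of fibroblasts and endothelium summed to 6.95, 6.15 and 7.17 TPM in the wild type and 3.58, 6.52 and 3.73 TPM in DKK1-SE-/- cells, led by THY1, with FAP at 0 in all 6. Of the 2 of these that were tested, 1 fell, the VEGF receptor KDR, from 2.35 ± 0.24 to 0.42 ± 0.11 TPM. The part of these markers in the differences of the members was not tested. In RNA from whole cultures, fewer cells that make a transcript and less of it in each cell cannot be told apart.

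Between the genotypes the members moved apart in both directions. VSIR was 4.86-fold higher in DKK1-SE-/- cells (log2 fold change 2.28, SE 0.18), and CD70 was 6.25-fold lower (log2 fold change -2.64, SE 0.16). CD47 (0.45, SE 0.12) and PVR (0.34, SE 0.11) were slightly higher on the log2 scale, while NECTIN2 (0.23, SE 0.13), CD276 (0.06, SE 0.12) and CD274 (-0.33, SE 0.43) differed by less than 2 standard errors. PDCD1LG2, VTCN1 and LGALS9 had too few counts to be tested and get no fold change. Sorted by the limit used across all genes, an adjusted p under 0.05, which is no test of genes selected on these values, 3 of the 7 others were higher (VSIR, CD47 and PVR) and 1 was lower (CD70), where 19.8% of all 15179 tested genes were higher and 19.5% lower. The count of 4 became 2 to 5 when 1 sample was left out. Of 15 alternatives, VSIR and CD70 were under the limit in 15, CD47 in 9 and PVR in 4. The study selected genes by an unadjusted p under 0.05 and a fold change of 1.2, without naming a log2 scale. With 1.2 read as a log2 fold change in either direction, called the log2 limits from here on, there were 1 higher member (VSIR; 4.96% of all tested genes) and 1 lower member (CD70; 3.7%). With 1.2 read as a linear fold change, there were 4 members, 3 higher (VSIR, CD47 and PVR) and 1 lower (CD70), among 3696 higher and 3531 lower genes of the 15179 tested. The TPM values of the genotypes did not overlap for 3 of the 7 (VSIR, PVR and CD70), against 44.2% of all tested genes. Since the members were chosen from this comparison, these counts are not read against those shares. The standard errors describe the spread between cultures of 1 edited clone and of the wild type, not between clones.

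**Figure D1:**
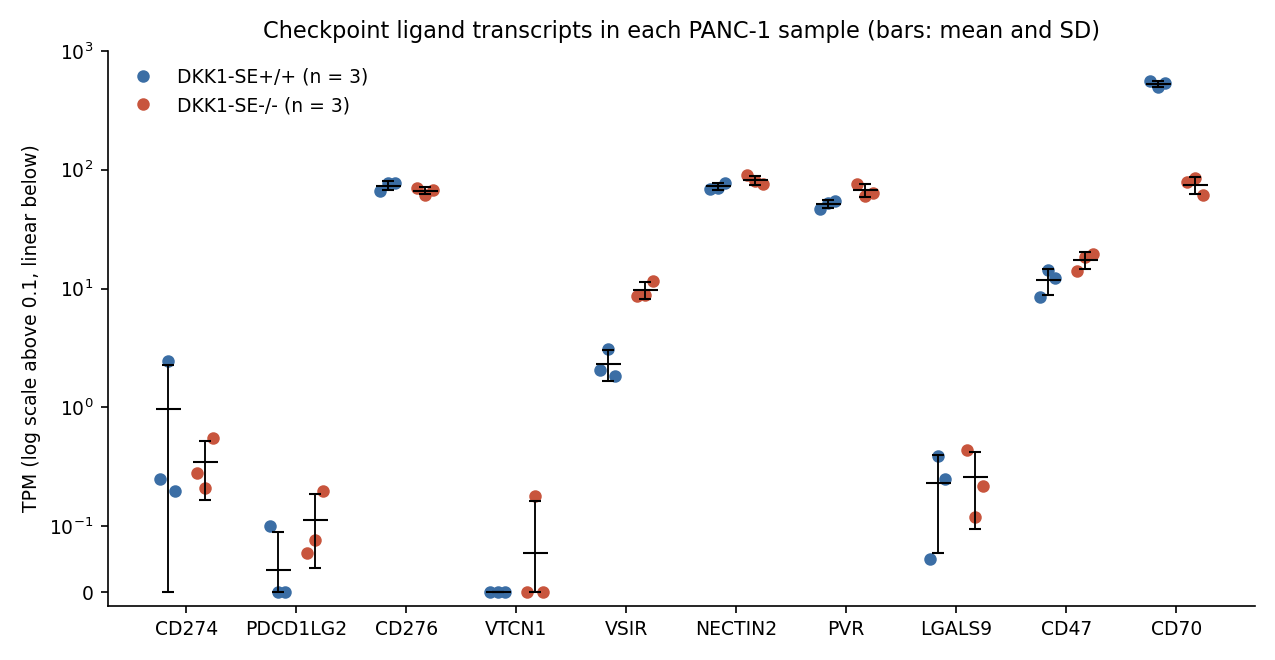
Level of each of the 10 members in each PANC-1 sample, in TPM on an axis that is logarithmic above 0.1 and linear below. Points are samples (blue wild type, red DKK1-SE-/-), short bars are means with SD (n = 3, cut off at 0 where the SD is larger than the mean). VSIR lies between 1.84 and 3.11 TPM in the wild type and between 8.73 and 11.5 TPM after the deletion, and CD70 lies at 495 to 558 and at 60.8 to 84.5 TPM.

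VSIR (ENSG00000107738) encodes VISTA, a member of the B7 family of immunoglobulin proteins best known from myeloid and T cells. Its gene lies at chr10:71747556-71773520 on the minus strand of hg38, on the chromosome of DKK1 but with its start 19.5 Mb from that of DKK1. VSIR stood at 2.08, 3.11 and 1.84 TPM in the wild-type replicates and at 8.73, 8.85 and 11.5 TPM in the DKK1-SE-/- replicates. Every edited sample was above every wild-type sample, by a gap wider than the spread within either genotype. The counts behind these levels were 71, 41 and 60 in the wild type and 270, 265 and 226 after the deletion, so the gene was measured at a modest depth but above the floor in each library. The mean was 2.34 ± 0.67 TPM against 9.70 ± 1.57 TPM (SD, n = 3). In CPM, here counts scaled by the library total and its TMM factor with no use of transcript length, it was 2.91 ± 0.40 against 14.2 ± 2.10. CDH23, a cadherin gene on the opposite strand that overlaps VSIR, had 4 to 16 counts per library, and reads shared between both genes could be given to either, since the sources do not say whether reads were counted by strand.

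Promoters are shown for VSIR, CD47 and PVR, the 3 members that were higher together, and for CD274, the ligand of PD-1, which was low in both genotypes. Each sequence runs from 250 bases before to 50 bases after the annotated start, was taken from RefSeq on the build GRCh38.p14, and is written 5′ to 3′ along the gene. Capitals mark matches, on either strand, to TGANTCA (AP-1), TGACGTCA (CRE), GGGCGG (GC box), TTCNNNGAA (GAS), GAAA followed by any pair of bases and GAAA (ISRE), ACGTG (HRE) and TATAAA (the TATA box). The VSIR window is chr10:71773471-71773770 on the minus strand, that of CD47 is chr3:108090982-108091281 on the minus strand, that of PVR is chr19:44643660-44643959 on the plus strand and that of CD274 is chr9:5450292-5450591 on the plus strand.
VSIR: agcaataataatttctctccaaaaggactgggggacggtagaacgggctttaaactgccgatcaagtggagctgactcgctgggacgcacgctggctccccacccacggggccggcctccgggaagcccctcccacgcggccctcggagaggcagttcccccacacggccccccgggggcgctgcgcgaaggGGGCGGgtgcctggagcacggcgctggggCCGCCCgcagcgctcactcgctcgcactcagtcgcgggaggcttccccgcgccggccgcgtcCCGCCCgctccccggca
CD47: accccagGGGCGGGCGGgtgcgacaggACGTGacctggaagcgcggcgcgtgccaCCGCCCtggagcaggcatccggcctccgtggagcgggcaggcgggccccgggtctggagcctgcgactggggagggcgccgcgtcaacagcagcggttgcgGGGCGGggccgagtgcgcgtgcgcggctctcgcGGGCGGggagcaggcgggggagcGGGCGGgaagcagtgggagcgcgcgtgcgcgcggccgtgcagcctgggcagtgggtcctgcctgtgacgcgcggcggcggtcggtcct
PVR: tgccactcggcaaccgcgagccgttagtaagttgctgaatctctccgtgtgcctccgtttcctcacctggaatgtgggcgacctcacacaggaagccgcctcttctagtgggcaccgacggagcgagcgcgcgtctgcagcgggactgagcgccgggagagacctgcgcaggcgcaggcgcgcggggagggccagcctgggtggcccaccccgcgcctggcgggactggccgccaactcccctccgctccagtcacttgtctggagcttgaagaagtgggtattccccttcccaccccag
CD274: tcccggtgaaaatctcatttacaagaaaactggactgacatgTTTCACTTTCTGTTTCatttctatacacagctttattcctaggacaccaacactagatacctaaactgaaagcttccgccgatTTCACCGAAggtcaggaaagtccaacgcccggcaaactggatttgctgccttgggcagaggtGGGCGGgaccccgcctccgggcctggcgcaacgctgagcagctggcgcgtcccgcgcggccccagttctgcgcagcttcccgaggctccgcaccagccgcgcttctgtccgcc
The VSIR window held 3 GC boxes and no other match, with 72.0% G and C. The CD47 window held 6 GC boxes, of which 1 pair overlaps, and 1 HRE, with 79.0% G and C. The PVR window held no match to the 7 motifs. The CD274 window held 1 GC box, 1 GAS and 2 ISRE that overlap each other, the last 2 motifs being named for responses to interferons. Of the 35116 promoters of the same length, 45.0% held a GC box, 21.4% an HRE, 11.5% a TATA box, 7.71% an AP-1, 7.66% a GAS, 3.57% an ISRE and 1.85% a CRE match. Among the other members, the NECTIN2 window had 3 GC boxes and 1 CRE, the 2 windows of CD276 had 7 GC boxes and 2 GC boxes with 1 HRE, VTCN1 had 1 AP-1 and LGALS9 had 1 ISRE. Windows were found for 8 of the 10 members, and there was no entry for PDCD1LG2 or CD70. A match is a description of letters, not a bound site, and no match says only that these letters are not in this window.

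The other B7 ligands split by level. CD276 (B7-H3), a ligand whose receptor is debated and that carcinomas often carry, stood at 65.8, 77.5 and 76.8 TPM in the wild type and at 70.4, 61.4 and 68.0 TPM in DKK1-SE-/- cells. The genotypes overlapped, and the sign of the difference changed with the scaling, from 0.06 with TMM to -0.01 with library size alone, -0.14 with limma on TPM and -0.22 with an offset for GC content. With that offset, and in no other alternative, CD276 was under the adjusted limit, as lower. CD274 stood at 0.25, 2.46 and 0.20 TPM in the wild type and at 0.28, 0.21 and 0.55 TPM after the deletion. Only wild-type replicate 2 was above 1 TPM, and the genotypes overlapped. The counts were 14, 19 and 10 against 10, 12 and 10, so the sample with the high TPM had few more counts than the others. In CPM it stood at 0.62, 1.13 and 0.52 against 0.61, 0.61 and 0.56, and without wild-type replicate 2 the log2 fold change was 0.05 in place of -0.33. With a standard error of 0.43 on the log2 scale, a small difference in CD274 could not be read at this depth. PDCD1LG2, downstream of CD274 on chromosome 9 with their starts 60.0 kb apart, had 4, 0 and 0 counts in the wild type and 2, 3 and 6 after the deletion. VTCN1 (B7-H4) had a single count in 1 of the 6 libraries, DKK1-SE-/- replicate 2.

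TPM and counts did not move alike for every member. The ratio of TPM to CPM was divided by its median over genes with a mean TPM of at least 1 in the same sample, and then differed between samples by up to 5.66-fold for CD274, 2.16-fold for VSIR and 1.70-fold for CD47, and by at most 1.21-fold for the other tested members. Over 13051 genes the median of this span was 1.16-fold, and 15.4% of genes exceeded 1.5-fold. Its part in the levels of CD274, VSIR and CD47 was not tested, beyond the values in CPM given beside them.

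The nectin-family ligands PVR (CD155) and NECTIN2 (CD112) were both abundant. The starts of their genes lie 202 kb apart on chromosome 19. PVR stood at 47.0, 52.5 and 54.8 TPM in the wild type and at 76.1, 60.1 and 64.2 TPM in DKK1-SE-/- cells. The genotypes did not overlap, but the gap between the highest wild-type and the lowest edited sample was smaller than the spread among the edited samples. NECTIN2 stood at 69.2, 70.5 and 77.6 TPM in the wild type and at 89.4, 79.5 and 76.2 TPM after the deletion. Here the genotypes overlapped, with DKK1-SE-/- replicate 3 below wild-type replicate 3. Over the alternatives the log2 fold change of PVR ranged from 0.19 to 0.39, and with the offset for GC content that of NECTIN2 changed sign (-0.07). PVR was under the adjusted limit in 4 of 15 alternatives, and not with library size alone or the offset for GC content. NECTIN2 was under it only without DKK1-SE-/- replicate 3 (0.32). The gene CEACAM19 overlaps PVR on the same strand with 6.01 to 73.2 counts per library, and its level was 3.18 TPM in the wild type and 0.64 TPM after the deletion, so that reads shared with PVR are uncertain.

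LGALS9 encodes galectin-9, a secreted lectin that binds the receptor HAVCR2 (TIM-3). It had 2, 3 and 6 counts in the wild type and 11, 4 and 2 in DKK1-SE-/- cells, and the genotypes overlapped. Its close relatives LGALS9B and LGALS9C had 0 to 2 counts per library, and reads from the 3 genes are hard to tell apart.

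CD47, the signal on the cell surface that holds back phagocytosis, stood at 8.55, 14.3 and 12.3 TPM in the wild type and at 14.1, 18.4 and 19.7 TPM in DKK1-SE-/- cells. In TPM the genotypes overlapped by a small margin, since DKK1-SE-/- replicate 1 was just below wild-type replicate 2. In CPM they did not, at 19.3, 18.7 and 20.7 against 24.5, 28.6 and 26.8. The log2 fold change ranged from 0.38 to 0.83 over the alternatives, the highest with the offset for GC content, CD47 being poorer in G and C (38.4%) than the median tested gene (48.2%).

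CD70 (ENSG00000125726), a ligand of the TNF family that costimulates T cells through the receptor CD27, was the most abundant member in the wild type. Its gene lies at chr19:6583183-6604103 on the minus strand of hg38. CD70 stood at 558, 495 and 533 TPM in the wild-type replicates and at 78.0, 84.5 and 60.8 TPM in the DKK1-SE-/- replicates. Every edited sample was below every wild-type sample, and the replicates of each genotype lay close together. Counts were 6478, 4190 and 5148 against 764, 980 and 575, so depth does not limit this gene. The mean was 529 ± 31.7 TPM against 74.4 ± 12.2 TPM (SD, n = 3). The pseudogene RPL7P50, on the opposite strand within CD70, had at most 20 counts in a library.

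The order of the members by level changed with the genotype. In the wild type CD70 led at 529 TPM, followed by CD276 (73.4 TPM) and NECTIN2 (72.4 TPM), whose samples overlapped, then by PVR (51.4 TPM), CD47 (11.7 TPM) and VSIR (2.34 TPM). In DKK1-SE-/- cells NECTIN2 (81.7 TPM), CD70 (74.4 TPM), PVR (66.8 TPM) and CD276 (66.6 TPM) formed a run in which each overlapped the next, and CD47 (17.4 TPM) and VSIR (9.70 TPM) came after it, each apart from its neighbours. The remaining members, CD274, LGALS9, PDCD1LG2 and VTCN1, had means under 1 TPM in both genotypes, each overlapping the next. In the wild type VSIR overlapped CD274 because of the single high CD274 value, and in DKK1-SE-/- cells it did not.

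Summed over the 10 members, the wild-type replicates held 751, 716 and 757 TPM and the DKK1-SE-/- replicates 337, 313 and 301 TPM. CD70 made up 74.3, 69.2 and 70.4% of that sum in the wild type and 23.1, 27.0 and 20.2% after the deletion. Without CD70 the other 9 members summed to 193, 221 and 224 TPM against 259, 229 and 241 TPM, higher in each edited sample. VSIR made up 0.32 ± 0.10% of the sum in the wild type and 3.08 ± 0.65% in DKK1-SE-/- cells, so its share was small in both. The plot of the make-up by sample shows these parts stacked.

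**Figure D2:**
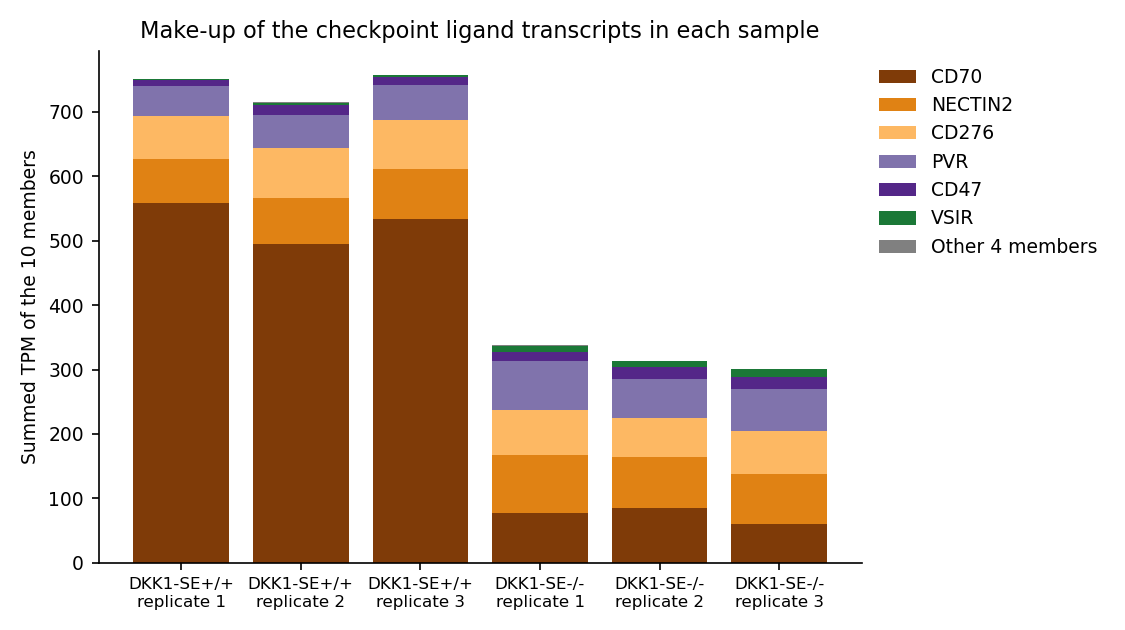
Make-up of the members' transcripts in each sample. The height of a bar is the summed TPM of the 10 members, and its colours are the single genes. The sum is 716 to 757 TPM in the wild type and 301 to 337 TPM in DKK1-SE-/- cells, and the brown part is CD70, at 529 and 74.4 TPM on average.

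The plot of log2 fold changes sets each tested member beside its values under the alternatives. VSIR ranged from 1.69 to 2.34, the lowest with limma on log2(TPM + 1), and CD70 from -2.94 to -2.49. The other 5 lay within a log2 fold change of 1.2 in each alternative, while CD47 (1.36-fold higher), PVR (1.27-fold higher) and CD274 (1.26-fold lower) exceeded a linear fold change of 1.2 in the edgeR estimate.

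**Figure D3:**
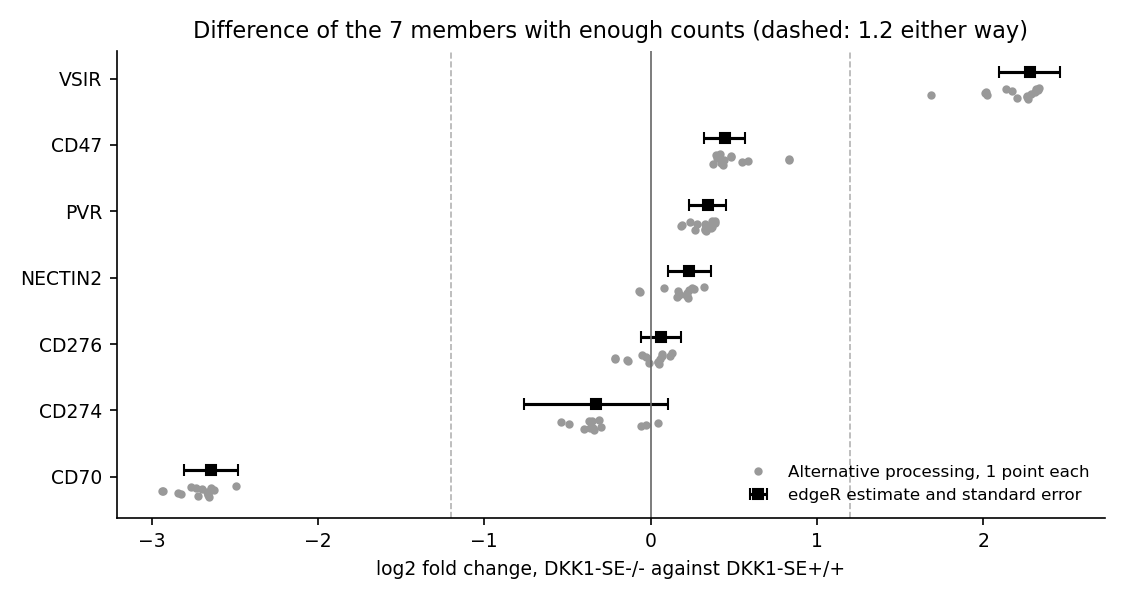
log2 fold change of DKK1-SE-/- against wild-type cells for the 7 members with enough counts. Black squares are the edgeR estimates with their standard errors, grey points are the alternatives, 1 point each, and dashed lines mark 1.2 in either direction. VSIR and CD70 lie outside the dashed lines, and points of NECTIN2, CD276 and CD274 fall on both sides of 0.

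Other ligands of T cell and natural killer cell receptors were read together with signals to phagocytes such as CD24 and complement regulators such as CD55. The list held 51 genes. Of these, 35 had enough counts, and 8 rose, 10 fell and 17 did not pass the test, so that 51.4% were called beside 39.3% of all tested genes, and the median log2 fold change was 0.08 beside 0.03. The 4 genes past the log2 limits by edgeR, TNFSF9, CD24, CD58 and RAET1G, were lower in DKK1-SE-/- cells. DESeq2, with no filter on low counts, tested 46 of the list and put 7 past these limits, counted in either direction. TNFSF9 (4-1BB ligand), a TNF-family costimulator like CD70, stood at 21.7, 21.6 and 25.2 TPM in the wild type and at 3.22, 4.07 and 2.76 TPM in DKK1-SE-/- cells. All 3 edited samples were below all 3 wild-type samples, and edgeR's quasi-likelihood test with Benjamini-Hochberg adjustment gave a log2 fold change of -2.59 (SE 0.18, adjusted p = 3.50e-06). CD24, a ligand of the phagocyte receptor SIGLEC10, stood at 3.89, 5.09 and 3.39 against 0.80, 0.88 and 1.31 TPM, again with no overlap. It fell by 1.98 on the log2 scale (SE 0.24, adjusted p = 0.000115 in the same edgeR test with Benjamini-Hochberg adjustment). CD58, the partner of the T cell adhesion receptor CD2, stood at 13.2, 13.4 and 11.6 against 3.50, 5.42 and 5.55 TPM. It fell in all 3 edited samples, by 1.29 on the log2 scale (SE 0.19, adjusted p = 0.000481 by edgeR with Benjamini-Hochberg adjustment). RAET1G, a ligand of the activating receptor NKG2D, was at 2.78, 1.23 and 1.02 against 1.08, 0.31 and 0.46 TPM, where the genotypes overlapped, and its adjusted p of 0.0578 by edgeR with Benjamini-Hochberg adjustment missed the limit (log2 fold change -1.48, SE 0.56). It was under the limit without wild-type replicate 3 (-1.74) or DKK1-SE-/- replicate 1 (-2.13), with no filter on low counts (-1.48), with the replicate block (-1.44), and with the offset for GC content without (-1.70) and with that block (-1.67). The log2 fold change of RAET1G shrank to -0.91 without wild-type replicate 1 and to -0.70 in limma on log2(TPM + 1), and missed the limit in both. RAET1G had enough counts for the test only through its wild-type samples, which favoured a fall. Reads of RAET1G and its ULBP relatives, and of the MIC and HLA genes on the list, may be shared. LGALS1 (galectin-1) was the most abundant of the list at 1577 ± 259 against 1717 ± 560 TPM, with overlapping samples, and it was called higher without DKK1-SE-/- replicate 3 (0.51) and with no filter on low counts (0.31). Over the alternatives its log2 fold change ranged from 0.0013 to 0.51.

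Receptors of the ligands were nearly silent in these cells. Of 28 receptor genes, CD2, CTLA4, TIGIT, CD40LG, CD244, ICOS, SIRPG, CD27 and CD28 were at 0 in all 6 samples, and the list summed to 6.43, 9.10 and 5.96 TPM in the wild type and 5.18, 6.0 and 5.33 TPM after the deletion. Only SIRPA and TNFRSF9 had enough counts to be tested, 1 falling and 1 rising, beside 39.3% called among all tested genes. SIRPA, the receptor of CD47, was the most abundant of the list, at 2.96, 3.60 and 3.73 TPM in the wild type and 2.38, 1.64 and 2.09 TPM in DKK1-SE-/- cells. It fell in all 3 edited samples (log2 fold change -0.58, SE 0.18, adjusted p = 0.0259 by edgeR with Benjamini-Hochberg adjustment). That call was lost without wild-type replicate 2 (-0.55) or 3 (-0.52) and without DKK1-SE-/- replicate 2 (-0.47), and in limma on both TPM scales (-0.55 and -0.73). TNFRSF9 (4-1BB), the receptor of TNFSF9, stood at 0.42, 0.27 and 0.25 against 0.43, 0.55 and 0.68 TPM. It rose while its ligand fell, by a log2 fold change of 1.48 (SE 0.33, higher in all 3 edited samples, adjusted p = 0.00524 by edgeR with Benjamini-Hochberg adjustment).

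Reported partners of VISTA were a list of 4 genes, of which 2 were tested and both rose, where 19.8% of all tested genes rose. SELPLG (PSGL-1), a selectin ligand that VISTA binds at acidic pH, stood at 0.20, 0.17 and 0.18 TPM in the wild type and at 0.71, 0.77 and 0.56 TPM in DKK1-SE-/- cells. The samples did not overlap, on 5, 3 and 6 against 18, 23 and 13 counts, with a log2 fold change of 2.04 (SE 0.45, adjusted p = 0.00497 by edgeR with Benjamini-Hochberg adjustment). SELPLG had enough counts for the test only through its DKK1-SE-/- samples, which favoured a rise once it was tested. The 2 rises among 2 tested genes are therefore not read against the share of all tested genes. LRIG1, a negative regulator of receptor tyrosine kinases, stood at 0.41, 0.47 and 0.70 against 1.67, 0.93 and 0.65 TPM. Its samples overlapped, with 2 of 3 edited samples above all wild-type samples, and its log2 fold change was 0.83 (SE 0.29, adjusted p = 0.0434 by edgeR with Benjamini-Hochberg adjustment). It was called in 2 of 13 alternatives, and no longer without wild-type replicate 1 (0.78), 2 (0.82) or 3 (0.86), without DKK1-SE-/- replicate 1 (0.75) or 2 (0.66), and, among further alternatives, with library size alone (0.76).

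Enzymes linked to immune suppression were a list of 13, and not all of them make a suppressive metabolite (QPCT, QPCTL and ADA do not). Of the 13, 8 were tested, 4 rose (IL4I1, ARG2, QPCTL and ADA) and 2 fell. This stands beside 39.3% called among all tested genes, and the median log2 fold change was 0.36. IL4I1, which degrades aromatic amino acids, stood at 0.59, 0.30 and 0.27 TPM in the wild type and 0.98, 1.03 and 1.32 TPM in DKK1-SE-/- cells. It had enough counts for the test only through its DKK1-SE-/- samples, which favoured a rise. It rose in all 3 edited samples with a log2 fold change of 1.49 (SE 0.41, adjusted p = 0.0144 by edgeR with Benjamini-Hochberg adjustment), a call lost without wild-type replicate 2 (1.35) or 3 (1.28) or DKK1-SE-/- replicate 2 (1.41), in DESeq2, and with the GC offset and the replicate block together (1.24). NT5E (CD73), which makes adenosine, was the most abundant enzyme at 149, 138 and 135 TPM in the wild type and 84.7, 103 and 130 TPM after the deletion. Its edited samples were all lower but widely spread, and edgeR with Benjamini-Hochberg adjustment gave a log2 fold change of -0.28 (SE 0.12, adjusted p = 0.0963), which missed the limit but was under it without DKK1-SE-/- replicate 3 (-0.42). The falls were those of QPCT, a glutaminyl cyclase, from 19.9 ± 2.92 to 8.24 ± 0.60 TPM, and of ENTPD1 (CD39), which degrades extracellular ATP, from 0.85 ± 0.07 to 0.36 ± 0.16 TPM. No rise was called in DESeq2, in limma on either TPM scale, or without wild-type replicate 2 or 3, while QPCT was called in 15 of 15 alternatives and ENTPD1 in 13 of 13. The count of 6 called enzymes went to 3 without wild-type replicate 1 or DKK1-SE-/- replicate 1 or 2, and to 2 without wild-type replicate 2 or 3.

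Known regulators of CD274, a list of 38 that were all tested, moved in both directions. Of these, 11 rose, 9 fell and 18 did not pass the test, so that 52.6% were called beside 39.3% of all tested genes, with a median log2 fold change of 0.04. SOCS1, an inhibitor of cytokine signalling through JAK kinases, was past the log2 limits. It stood at 0.58, 1.18 and 0.62 TPM in the wild type and 2.24, 2.43 and 1.23 TPM in DKK1-SE-/- cells. SOCS1 had enough counts for the test only through its DKK1-SE-/- samples, which favoured a rise. It rose in all 3 edited samples by a log2 fold change of 1.57 (SE 0.43, adjusted p = 0.0152 by edgeR with Benjamini-Hochberg adjustment). The call was lost without wild-type replicate 1 (1.34) or 3 (1.42), without DKK1-SE-/- replicate 1 (1.41) or 2 (1.37), and in limma on log2(TPM + 1) (0.72) and log2(TPM + 0.1) (1.22). The most abundant of the list was FOSL1, a subunit of the transcription factor AP-1, at 346 ± 38.8 against 361 ± 43.5 TPM, with overlapping samples, and it was called higher without DKK1-SE-/- replicate 3 (0.32). The pathway of PD-L1 expression and the PD-1 checkpoint as the deposited table annotates it from KEGG held 79 genes, 60 of them tested, CD274 included. Of the 60, 14 rose and 13 fell, 45% beside 39.3% of all tested genes, with a median log2 fold change of 0.01. By edgeR none of them was past the log2 limits, and 33 had an unadjusted p under 0.05. DESeq2, with no filter on low counts, tested 73 genes of the pathway and put 1 past the log2 limits. The 27 called genes became 17 without wild-type replicate 1 or without wild-type replicate 2. CSNK2B, a subunit of casein kinase 2 and the most abundant gene of the pathway, rose from 229 ± 9.41 to 289 ± 12.6 TPM, a log2 fold change of 0.50 (SE 0.11, higher in all 3 edited samples, adjusted p = 0.00387 by edgeR with Benjamini-Hochberg adjustment).

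**Figure D4:**
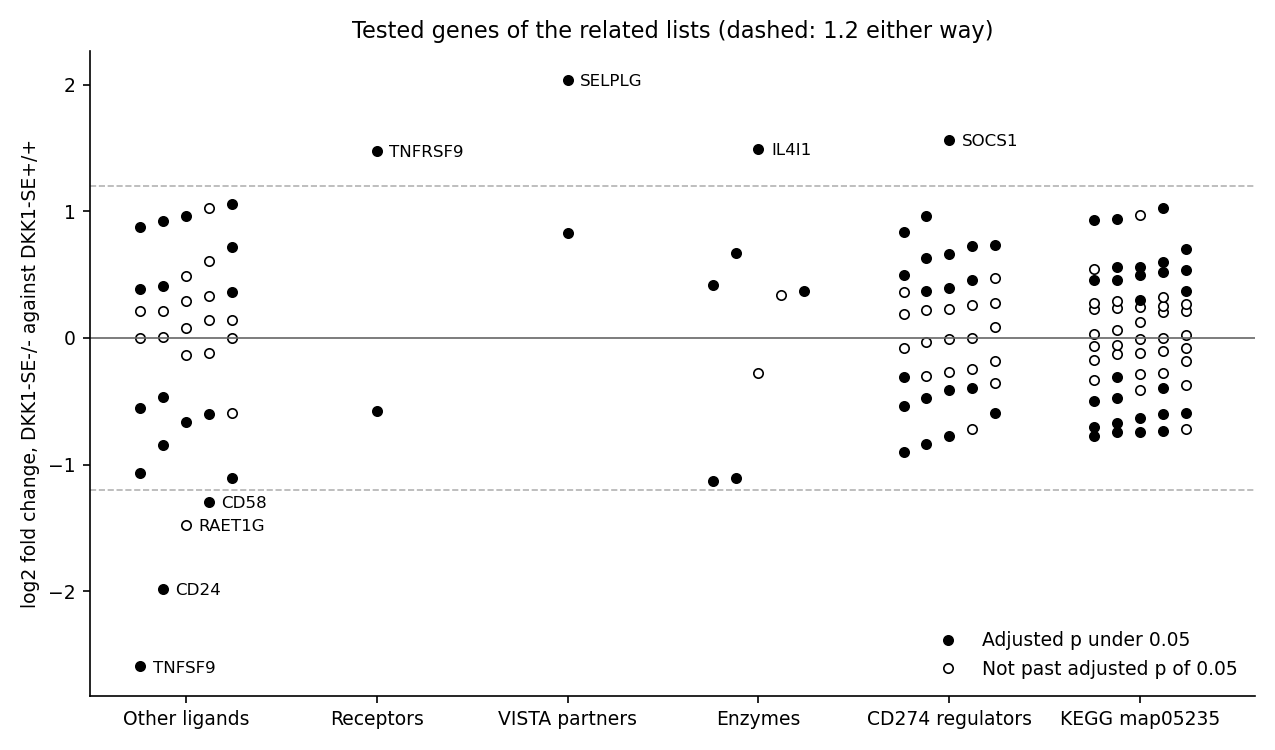
log2 fold change of DKK1-SE-/- against wild-type cells for each tested gene of the related lists, members left out. Filled points passed edgeR's test at an adjusted p under 0.05, open points did not, dashed lines mark 1.2 in either direction, and names mark the genes past the log2 limits. Most genes lie between the dashed lines, and TNFSF9 at -2.59 is the lowest point.

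Neighbours of VSIR and CD274 were read beside the 39.3% called among all tested genes. Within 500 kb of VSIR, 7 other genes were tested, with 1 rising, 1 falling and a median log2 fold change of 0.04. UNC5B, a netrin receptor, rose by a log2 fold change of 0.97 (SE 0.23, higher in all 3 edited samples, adjusted p = 0.00683 by edgeR with Benjamini-Hochberg adjustment), a call lost with the GC offset and the replicate block together (0.70). CHST3, a sulfotransferase of chondroitin, fell by 0.84 on the log2 scale (SE 0.13, lower in all 3 edited samples, adjusted p = 0.000573 by edgeR with Benjamini-Hochberg adjustment). PSAP, the gene for the lysosomal protein prosaposin and the tested gene closest to VSIR with starts 77.7 kb apart, stood at 746 ± 13.8 against 575 ± 7.87 TPM, lower in all 3 edited samples. Its adjusted p of 0.0660 by edgeR with Benjamini-Hochberg adjustment missed the limit (log2 fold change -0.26, SE 0.10). It was under the limit in DESeq2 (-0.28), with library size alone (-0.33), with the offset for GC content without (-0.45) and with the replicate block (-0.45), in limma on both TPM scales (-0.38 and -0.38) and without DKK1-SE-/- replicate 1 (-0.31). SPOCK2 (-0.07), ASCC1 (0.04), ANAPC16 (0.10) and SLC29A3 (0.53) did not pass the test, and SLC29A3 did without DKK1-SE-/- replicate 3 (0.69). Within 500 kb of CD274, 5 other genes were tested, with a median of -0.49, and KIAA2026 alone was called, falling by 0.63 on the log2 scale (SE 0.21, lower in all 3 edited samples, adjusted p = 0.0312 by edgeR with Benjamini-Hochberg adjustment). The KIAA2026 call was lost without wild-type replicate 1 (-0.59) or 2 (-0.65), without DKK1-SE-/- replicate 1 (-0.48) or 2 (-0.65), in DESeq2 (-0.65) and in limma on both TPM scales (-0.44 and -0.76). JAK2, the kinase gene upstream of CD274, stood at 0.72, 0.69 and 0.72 against 0.25, 0.34 and 0.60 TPM, with a log2 fold change of -0.72 that missed the limit and passed it without DKK1-SE-/- replicate 3 (-1.03) and with no filter on low counts (-0.74). Over the alternatives the value for JAK2 ranged from -1.03 to -0.31. PLGRKT (-0.49), RIC1 (0.08) and ERMP1 (0.19) did not pass the limit either, and ERMP1 did with the offset for GC content (0.28).

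CD70 differed from these loci in its neighbour. The surroundings of CD70 were looked at after its values and those of TNFSF9 had been seen. TNFSF9 lies with its start 73.1 kb from that of CD70, and its log2 fold change of -2.59 is close to the -2.64 of CD70. TNFSF14, a further TNF-family gene with its start 66.5 kb from that of CD70, had 0 to 7.04 counts per library and was not tested. Of 15 other genes tested within 500 kb, 3 fell, TNFSF9 included, and 1 rose, beside 39.3% called among all tested genes, with a median of 0.19. The other 2 that fell were TUBB4A (-1.22) and C3 (-0.90), and the one that rose was MLLT1 (0.41). TUBB4A was called in 15 of 15 alternatives, C3 in 13 and MLLT1 in 6. For C3 the difference was in counts, while its mean TPM was 2.70 in the wild type and 2.62 after the deletion. The distances in the plot run from start to start, so a gene whose body comes within 500 kb can lie beyond that mark.

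**Figure D5:**
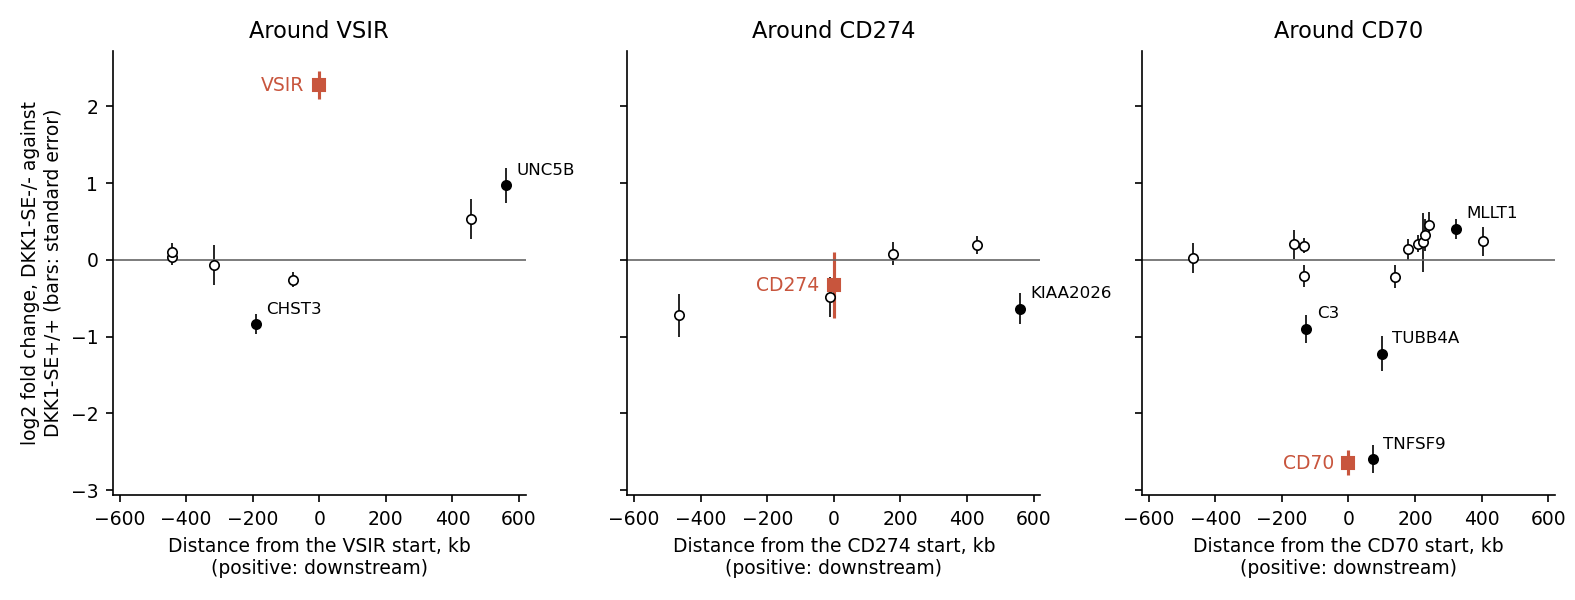
log2 fold change of tested genes by the distance of their start from that of VSIR, CD274 or CD70, in kb, positive downstream along the member's transcription. Red squares are the members, filled points are neighbours with an adjusted p under 0.05 in edgeR, open points are the others, and bars are standard errors. VSIR at 2.28 stands apart from its neighbours, while TNFSF9 lies beside CD70 near the bottom.

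Across the whole table, the genes whose profile over the 6 samples lay closest to that of VSIR were GALNT6, NFASC, ADGRF1, SLAIN1 and C1orf226. Likeness was the Euclidean distance between centred log2(TPM + 1) values, ranked over 15178 tested genes, and it was 0.29 for GALNT6, 0.37 for NFASC, 0.39 for ADGRF1, 0.40 for SLAIN1 and 0.42 for C1orf226. GALNT6, an enzyme that starts O-linked glycans, stood at 2.81, 3.54 and 2.43 TPM in the wild type and at 12.8, 12.2 and 13.6 TPM in DKK1-SE-/- cells. NFASC, a cell adhesion protein of the immunoglobulin superfamily, stood at 1.38, 1.38 and 1.04 against 5.76, 6.06 and 6.46 TPM. Both were higher in every edited sample, as VSIR was. The adhesion receptor ADGRF1 stood at 0.20 ± 0.05 against 2.54 ± 0.27 TPM, SLAIN1, a microtubule-associated protein, at 0.21 ± 0.18 against 2.58 ± 0.75 TPM and C1orf226 at 0.38 ± 0.06 against 3.05 ± 0.53 TPM (SD, n = 3). Genes ranked by likeness to VSIR differ between the genotypes by construction, so no test is given for them.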

How the data were processed

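Total RNA of 6 PANC-1 cultures was sequenced from stranded mRNA libraries, and the authors' processing notes name the build hg38. For each gene and culture the deposited table has an expected count, estimated by the authors and not normalized, and 32.3% of the counts above 0 are not whole numbers. It also holds TPM, a level per transcript length that the authors scaled within each library. The aligner, the counting program and the annotation are not given in the sources used here. The authors' comparison columns, which hold fold changes, p-values and adjusted p-values, were not used here.

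Expected counts were rounded for edgeR 4.0.16 (R 4.3.3). Its filterByExpr (minimum count 10) left 15179 genes, TMM scaled the libraries, and the genotypes (n = 3 each) were compared by quasi-likelihood F tests, with p-values adjusted over these genes by Benjamini and Hochberg's method. A standard error is the absolute log2 fold change divided by the square root of F. The procedure was tested on simulated data, but no values of that test are given here and no result rests on it.

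The members and the gene lists were chosen with earlier results of these data known. Named genes are the 10 members, DKK1, in each list the genes past an unadjusted p of 0.05 and a log2 fold change of 1.2 (at most 4) and the most abundant one, tested genes within 500 kb of VSIR and CD274, and the 5 profiles nearest to VSIR. Others were named after their values were seen. Positions come from GENCODE version 44, which placed 62625 of the 62703 genes. Alternatives used RLE factors, library size alone, no filter, DESeq2 1.42.0, limma 3.58.1 (trend option) for genes with a mean TPM of at least 1, on log2(TPM + 1) or log2(TPM + 0.1), an offset for GC content, a replicate block, both together, and each sample left out. Tables and figures used Python 3.11.15, pandas 2.3.3 and matplotlib 3.10.9.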

Additional observations from a re-analysis of the deposited data

How the results depend on the processing

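Log2 fold changes were recomputed under 15 alternatives, or 13 for genes that limma's TPM minimum left out. Of the genes named by the rule set beforehand, members aside, 8 gained and 6 lost a call in at least 1 alternative, and none called by edgeR changed sign. NECTIN2, CD276, CD274, FOSL1, ASCC1, ANAPC16 and RIC1, not called there, did. With 1.2 as a linear limit, 4 members and 7227 genes were selected. Members under the adjusted limit, counted without a test, numbered 4, and 2 with limma on either TPM scale; with the replicate block they numbered 2, although same-numbered samples did not vary together (r of -0.18, -0.11 and -0.16), so the numbers do not pair samples. Leaving out 1 sample gave 2 to 5 members, 14 to 22 other ligands, 1 to 2 receptors, 2 to 7 enzymes, 14 to 28 regulators of CD274, 17 to 40 genes of the KEGG pathway and 4095 to 7558 genes in all, with fewer samples by construction.

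Limma on log2(TPM + 1) and on log2(TPM + 0.1) called 11 and 11 other ligands, 1 and 1 enzymes, 16 and 16 KEGG genes and 3590 and 3612 genes in all. It called 0 and 0 receptors of 1 tested, which had an unadjusted p under 0.05, where edgeR and DESeq2 each called 2. Limma's scale shifted the median log2 fold change by -0.14, and its calls split into 1217 higher and 2373 lower, against 3013 and 2959 in edgeR. DESeq2 called 2 enzymes, and the GC offset with the replicate block called 3. The cause of these changes was not tested.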

Other observations

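Further ligands and regulators from the same lists are given here, chosen after their values were seen and called in 15 of 15 alternatives with the same sign under each scaling. ICAM1, the adhesion ligand of the integrin LFA-1, stood at 116 ± 3.21 TPM in the wild type and 218 ± 9.86 TPM in DKK1-SE-/- cells (SD, n = 3), a log2 fold change of 1.06 (SE 0.10). Calreticulin (CALR), a chaperone of the endoplasmic reticulum that promotes phagocytosis when exposed on the cell surface, rose from 625 ± 24.5 to 1060 ± 8.71 TPM. HLA-E, the ligand of the inhibitory natural killer cell receptor NKG2A, rose from 60.0 ± 0.88 to 90.6 ± 4.62 TPM. MICB, a stress ligand of the activating receptor NKG2D, fell from 51.4 ± 3.99 to 33.5 ± 1.65 TPM, and NCR3LG1 (B7-H6), a ligand of the activating receptor NKp30, fell from 8.5 ± 0.26 to 4.28 ± 0.32 TPM. In each of these 5 genes the samples of the genotypes did not overlap.

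Among regulators of CD274, CMTM6, which keeps PD-L1 on the cell surface, fell from 51.9 ± 2.43 to 26.2 ± 6.97 TPM. The interferon gamma receptor subunit IFNGR1 fell from 14.6 ± 1.29 to 7.70 ± 1.05 TPM. All 3 edited samples were below all 3 wild-type samples for both of these genes. For CD274 itself the difference was smaller than its standard error (log2 fold change -0.33, SE 0.43).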
